A study of Mus musculus with 4 samples.

Results

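The genes described here are 7 mouse genes of steroid hormone synthesis and of Müllerian hormone signalling, Hsd3b1, Amhr2, Amh, Star, Cyp11a1, Cyp17a1 and Scarb1. All their probes were taken, 9 of the 41153 probes measured, and the 7 are among 18318 genes that could be named on the array. For Hsd3b1 and Amhr2 both HP1γ-null pools lay above both wild-type pools, and the list was built around that reading, so their difference is a description and carries no test. The other 5 genes were listed with them by function. The HP1γ-null pools came from HP1γ-/- embryos, made null by a modified gene trap in the gene of the heterochromatin protein HP1γ (Cbx3), and carried a Blimp1-mVenus reporter transgene. The wild-type pools carried the same reporter. In both genotypes, mVenus-positive cells, labelled as primordial germ cells, were sorted from genital ridges at embryonic day 11.5, with 500 to 3500 cells per embryo and 5 or 6 embryos in a pool. Each genotype had 2 independent pools, called replicates 1 and 2, and each pool was read on 1 one-colour Agilent array. The strain of the mice was not given in the sources used here.

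Steroid hormones are made from cholesterol. Scarb1 takes cholesterol up from lipoproteins, Star moves it into mitochondria, Cyp11a1 cleaves its side chain to give pregnenolone, and Hsd3b1 and Cyp17a1 carry pregnenolone on towards progesterone and androgens. Anti-Müllerian hormone, encoded by Amh, is secreted by Sertoli cells of the fetal testis and makes the Müllerian duct regress in males. It binds Amhr2, its type II receptor, which signals with type I receptors of the BMP family, and Amhr2 is also known as a gene of gonadal somatic cells.

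Levels are log2 signals minus the 75th percentile of the array's own probes, so that 0 is the 75th percentile, and levels of different probes are not compared. A probe is called measured on an array where the scanner software marked it well above background. The 75th percentile was 125 and 291 intensity units on the null arrays and 188 and 219 on the wild-type arrays, and the dimmest measured probe lay at -3.56 and -4.84 on the null arrays and at -3.68 and -4.11 on the wild-type arrays. The arrays of replicate 2 therefore reached lower levels than those of replicate 1 in both genotypes. Cbx3 read -1.24 and -2.78 on the null arrays and 5.89 and 5.72 on the wild-type arrays. The null pools differed from each other, and null replicate 2 lacked most markers of its label. Of 12 germ cell markers with a probe, 12 and 5 were measured in null replicates 1 and 2 and 11 in each wild-type pool, and in null replicate 2 Dppa3, Pou5f1 and Ddx4 were not well above background. All 14 endothelial markers and 10 of 11 leukocyte markers were measured on every array, so the levels are those of mixed pools. Differences of the members, and of most pathway genes named, are therefore also given without null replicate 2. In pools of this kind, more cells of a type and more RNA per cell cannot be told apart.

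On the whole list, 4 and 7 of the 7 genes were measured in null replicates 1 and 2, and 3 and 5 in wild-type replicates 1 and 2, by the probe with the highest mean over the 4 arrays where a gene had several. Of all spots, 53.8% and 63.3% were well above background in null replicates 1 and 2, and 53.3% and 56.7% in wild-type replicates 1 and 2. Amhr2, Cyp17a1 and Scarb1 were measured on all 4 arrays, as were 49.4% of all probes. Hsd3b1 was measured in both null pools only, Cyp11a1 in null replicate 2 only, and Amh and Star in replicate 2 of each genotype only. Both null arrays lay above both wild-type arrays for Hsd3b1, Amhr2 and Cyp11a1, and below them for Amh, while the genotypes overlapped for Star, Cyp17a1 and Scarb1. Of the 22440 probes that entered the test, 15.1% had both null arrays above both wild-type arrays, 3.92% also by at least 2-fold, and 38.2% did not overlap in either direction. Since Hsd3b1 and Amhr2 were chosen by this comparison, nothing is read from the members' count against that background.

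**Figure D1:**
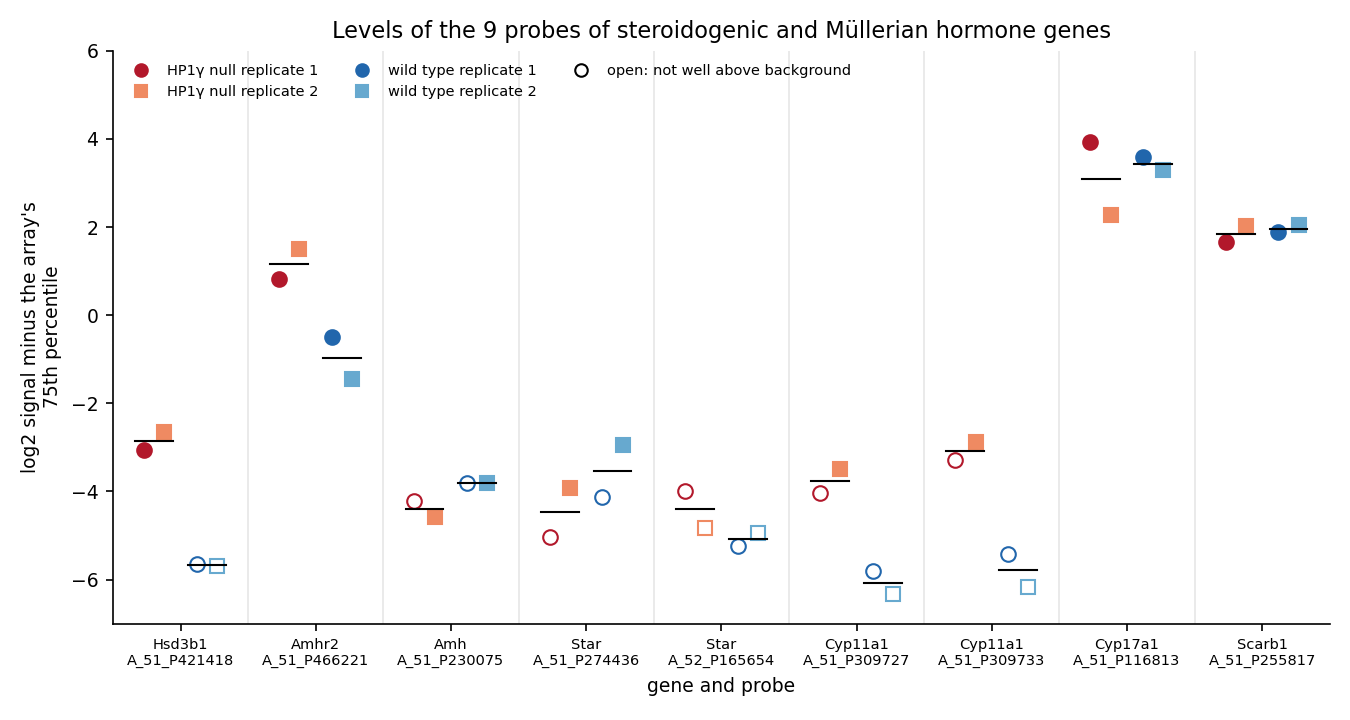
Levels of the 9 probes on each array (vertical axis: log2 signal minus the array's 75th percentile; horizontal axis: gene and probe), with HP1γ-null pools in red tones left of wild-type pools in blue tones, open symbols where the probe was not well above background, and black lines at the mean of 2 pools. For Amhr2 the null pools read 0.82 and 1.51 and the wild-type pools -0.50 and -1.46, while for Scarb1 all 4 pools lie between 1.66 and 2.04.

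Amhr2 was the member with a measured level in every pool and no overlap between genotypes. Its probe A_51_P466221 had 220 and 825 intensity units on the null arrays, against 132 and 79.6 on the wild-type arrays. Scaled, these are levels of 0.82 and 1.51 in the null pools and -0.50 and -1.46 in the wild-type pools. The lower null pool lay 1.32 above the higher wild-type pool, and the pools of a genotype lay 0.69 apart in null and 0.96 apart in wild type. These values chose the gene and support nothing. The means were 1.16 ± 0.49 in the null pools and -0.98 ± 0.68 in wild type (SD, n = 2 each), a log2 difference of 2.14, or 4.42-fold. Without null replicate 2 the difference was 1.80, and over the 4 left-out arrays it lay between 1.67 and 2.62. It was 1.60 both with scaling to spiked-in control RNA and with normexp background correction.

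Hsd3b1, which converts pregnenolone to progesterone, was weak in every pool. Probe A_51_P421418 had 14.9 and 46.3 intensity units on the null arrays, against 3.71 and 4.24 on the wild-type arrays. Its levels were -3.06 and -2.65 in the null pools and -5.66 and -5.69 in the wild-type pools, and neither wild-type reading stood well above background. The wild-type values are not measured sizes, so the fold is given as a bound. It is taken against whichever is higher on each wild-type array, this probe's signal or the dimmest measured one. That dimmest signal is not a strict limit. Some probes read higher without standing well above background, such as Gata4 at -3.52 in wild-type replicate 1. The words at least are used in this sense here and below. Hsd3b1 was at least 2.06-fold higher in the null pools, with means of -2.86 ± 0.29 in the null pools and -5.67 ± 0.02 in wild type (SD, n = 2 each). The bound was 1.78-fold without null replicate 2, 1.41-fold with scaling to spiked-in RNA and 1.45-fold with normexp. Of all 41153 probes, 1.13% were measured on both null arrays and on neither wild-type array, against 0.0705% with the reverse pattern.

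Hsd3b1 is the last of a run of neighbouring family genes on chromosome 3, in the order Hsd3b4, Hsd3b5, Hsd3b2, Hsd3b3, Hsd3b6 and Hsd3b1, with the gene model Gm10681 after Hsd3b4 and Hao2 on the far side. These genes are close relatives in sequence, so a probe of one may bind transcripts of another, which was not tested. The 5 relatives had 7 probes, and 1 of the 7 was measured on any array, while 34.8% of all probes were measured on none. That probe, A_51_P352005 of Hsd3b4, read -4.00 and -4.60 in the null pools and -4.44 and -5.96 in the wild-type pools, and was well above background in null replicate 2 only. Hsd3b6, the nearest neighbour, read -5.87 and -5.29 in the null pools and -4.24 and -6.40 in the wild-type pools, and was well above background on none. Hsd3b2, by its brighter probe, read -5.85 and -5.31 in the null pools and -5.85 and -6.43 in the wild-type pools, likewise on none. Among the 6 genes of the run with a named probe, signal in both null pools was thus measured for Hsd3b1 alone.

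Cyp11a1, whose enzyme takes the first step from cholesterol to steroids, had 2 probes with the same order of arrays. By probe A_51_P309733 it had 12.7 and 39.7 intensity units on the null arrays, against 4.41 and 3.06 on the wild-type arrays. The levels were -3.29 and -2.87 in the null pools and -5.41 and -6.16 in the wild-type pools, and only null replicate 2 was well above background. Probe A_51_P309727 read -4.05 and -3.49 in the null pools and -5.82 and -6.32 in the wild-type pools, again measured in null replicate 2 only. By the brighter probe, null replicate 2 alone was at least 2.04-fold above the wild-type pools. No bound is given for the 2 null pools together, since null replicate 1 did not measure the gene. With its reading entered as it stood, the value was 1.76-fold, or 1.21-fold with scaling to spiked-in RNA and 1.30-fold with normexp. No bound is given for the other probe, whose reading in null replicate 1 lay below the dimmest measured signal of that array. The bound thus rests on null replicate 2, without which no array measured the gene. Cyp11a1 did not enter the test, which took probes measured on both arrays of a genotype. Of all probes, 5.62% were measured in null replicate 2 alone.

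Amh and Star, the hormone gene and the cholesterol transport gene, stayed near background in both genotypes. Amh read -4.22 and -4.58 in the null pools and -3.80 and -3.80 in the wild-type pools, and was well above background only in replicate 2 of each genotype. Its null pools were the lower ones, by a log2 difference of means of -0.59 (without null replicate 2, -0.41) with values this close to background. Star, by probe A_51_P274436, read -5.03 and -3.92 in the null pools and -4.12 and -2.94 in the wild-type pools. Replicate 2 of each genotype was the higher one and the one measured, and the genotypes overlapped, with a log2 difference of means of -0.95 (without null replicate 2, -1.51). The further Star probe, A_52_P165654, read -3.99 and -4.83 in the null pools and -5.23 and -4.94 in the wild-type pools and was well above background on no array, so the 2 probes point in opposite directions. Neither gene entered the test. Of all probes, 2.45% were measured in replicate 2 of each genotype and not in replicate 1.

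Cyp17a1, the steroid hydroxylase and lyase on the way to androgens, was measured in every pool with 1399 to 2246 intensity units. Its levels were 3.93 and 2.27 in the null pools and 3.58 and 3.29 in the wild-type pools, so that the null pools lay on either side of wild type. The means were 3.10 ± 1.17 in the null pools and 3.44 ± 0.20 in wild type (SD, n = 2 each). The log2 difference of -0.34 with SE 0.60 did not pass the threshold (limma adjusted p = 0.95), and its 95% interval ran from -1.94 to 1.26. Without null replicate 2 the sign turned, to 0.49, and without null replicate 1 the difference was -1.17. The order of the pools was null replicate 1, wild-type replicates 1 and 2, then null replicate 2. Dppa3, Pou5f1 and Ddx4 had the same order, Dppa3 with levels of 3.58 and -7.04 in the null pools and 1.60 and -0.26 in the wild-type pools. Prdm1, the gene of the reporter, read 1.48 and 0.65 in the null pools and 1.24 and 1.27 in the wild-type pools. The part of germ cell content in the Cyp17a1 levels was not tested.

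Scarb1, the lipoprotein receptor for cholesterol uptake, was close to level over the pools. Probe A_51_P255817 read 1.66 and 2.03 in the null pools and 1.88 and 2.04 in the wild-type pools, and the genotypes overlapped. The means were 1.84 ± 0.26 in the null pools and 1.96 ± 0.12 in wild type (SD, n = 2 each). The log2 difference was -0.11 with SE 0.23 (limma adjusted p = 0.96), with a 95% interval from -0.74 to 0.51. Without null replicate 2 it was -0.30, and without null replicate 1 it was 0.073, the only turn of sign for this gene among the settings run. Macrophages and endothelial cells are also known to express Scarb1.

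Promoter sequence from RefSeq (build GRCm38.p6) was at hand for 3 of the 7 genes, Hsd3b1, Amhr2 and Cyp11a1, which are also the 3 whose null arrays lay above wild type. The 250 bases before each listed start are shown. Capitals mark the letters AGGTCA on either strand, the half-site known to be bound by Nr5a1, the steroidogenic factor, and by other nuclear receptors. Hsd3b1 is given at chr3:98859795-98860044 (minus strand), Amhr2 at chr15:102445117-102445366 (plus strand) and Cyp11a1 at chr9:57997774-57998023 and chr9:58014702-58014951 (plus strand), its 2 listed starts.
Hsd3b1: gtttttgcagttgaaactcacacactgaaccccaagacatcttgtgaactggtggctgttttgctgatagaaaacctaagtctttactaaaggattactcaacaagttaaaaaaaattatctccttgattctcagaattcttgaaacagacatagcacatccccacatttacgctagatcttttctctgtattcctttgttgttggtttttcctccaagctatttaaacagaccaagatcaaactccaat
Amhr2: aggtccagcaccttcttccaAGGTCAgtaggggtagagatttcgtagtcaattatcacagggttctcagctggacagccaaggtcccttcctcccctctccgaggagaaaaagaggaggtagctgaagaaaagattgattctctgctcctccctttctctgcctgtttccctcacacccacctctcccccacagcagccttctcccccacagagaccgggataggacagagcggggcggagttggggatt
Cyp11a1, start site 1: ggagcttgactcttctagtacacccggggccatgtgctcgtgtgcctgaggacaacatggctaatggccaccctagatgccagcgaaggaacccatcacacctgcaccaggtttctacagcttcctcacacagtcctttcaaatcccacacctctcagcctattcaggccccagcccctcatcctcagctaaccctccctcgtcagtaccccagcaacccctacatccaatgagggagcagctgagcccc
Cyp11a1, start site 2: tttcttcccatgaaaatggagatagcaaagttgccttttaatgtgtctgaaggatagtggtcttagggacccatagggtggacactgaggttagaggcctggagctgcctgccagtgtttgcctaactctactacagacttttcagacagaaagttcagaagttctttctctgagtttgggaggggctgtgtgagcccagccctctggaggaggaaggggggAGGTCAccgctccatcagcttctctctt

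The Amhr2 window holds AGGTCA within the longer letters CAAGGTCA, from 232 to 225 bases before the start, and 1.33% of all 32851 windows hold the longer form on either strand. The second Cyp11a1 window holds AGGTCA from 28 to 23 bases before the start, and 14.0% of all windows hold it on either strand. The Hsd3b1 window and the first Cyp11a1 window do not hold these letters. AGATAA, a form bound by GATA factors, stands on the opposite strand in the Hsd3b1 window (9.99% of all windows), and TGATAA on the opposite strand in the Amhr2 window (7.94%). These motifs were chosen after the sequences were seen, and the matches are a description of the letters only.

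Markers of other cell types were read beside the members. Of 15 gonadal somatic markers, 6 had both null arrays above both wild-type arrays, 1 had them below and 8 overlapped. Nr5a1, Gata4, Wt1, Lhx9, Emx2 and Cited2 were among those that overlapped. Of all tested probes 15.1% lay above and 23% below. The markers were counted without the filter of the test, and 4 of the 15 were measured on all arrays, so the shares are of unlike sets. Their summed signal, in units of each array's 75th percentile, was 12.4 and 13.3 in the null pools and 7.68 and 6.49 in the wild-type pools. Of the 15, 8 and 14 were measured in null replicates 1 and 2 and 7 and 5 in wild-type replicates 1 and 2. Null replicate 2 also had the highest share of all spots well above background, at 63.3%. Markers of mesonephric epithelium summed to 33.0 and 9.11 in the null pools and 2.82 and 1.92 in wild type, although their defining genes Pax2 and Pax8 were well above background on no array, and of the 10 markers 2 lay above and 1 below. Stromal markers summed to 16.7 and 101 in the null pools and 33.3 and 16.2 in wild type, and germ cell markers to 207 and 3.00 in the null pools and 52.0 and 18.1 in wild type. The germ cell and stromal sums thus set the null pools far apart. Endothelial markers summed to 237 and 301 in the null pools and 410 and 453 in wild type, and 13 of the 14 had both null arrays below both wild-type arrays. Leukocyte markers summed to 306 and 264 in the null pools and 306 and 356 in wild type, with 4 of 11 below, and erythroid markers to 3.25 and 4.18 in the null pools and 4.16 and 5.99 in wild type. The gonadal and mesonephric sums were higher, and the endothelial sums lower, in both null pools than in either wild-type pool. A sum is set mostly by the brightest markers of a list. By median level the mesonephric list was not higher in both null pools, at -1.34 and -3.74 against -2.73 and -3.48 in wild type. The gonadal medians were higher in both, at -2.67 and -2.17 against -3.52 and -4.30. The part of any of these cell types in the member levels was not tested.

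**Figure D2:**
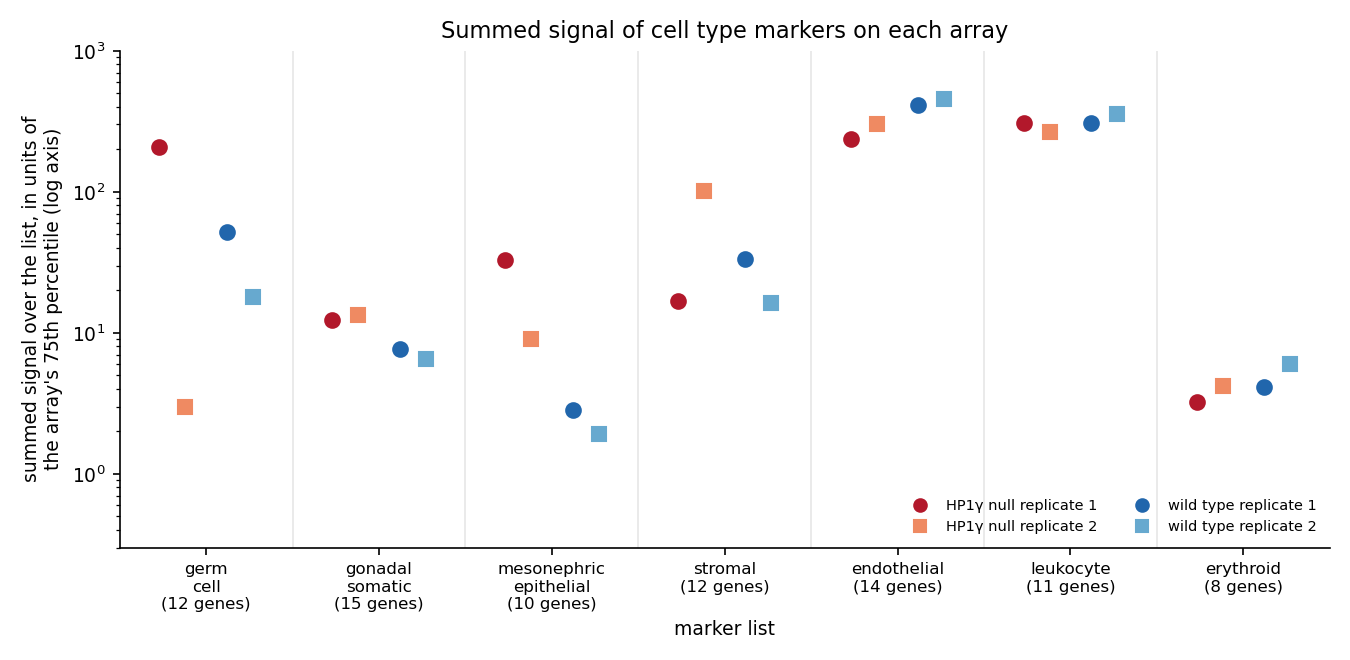
Summed signal of each marker list on each array (vertical axis: sum of signals in units of the array's 75th percentile, log axis; horizontal axis: marker list with the number of genes that had a probe), HP1γ-null pools left of wild-type pools. Gonadal somatic and mesonephric sums are higher in both null pools, at 12.4 and 13.3 against 7.68 and 6.49 for gonadal somatic markers. The mesonephric median level, not drawn, was lowest in null replicate 2, at -3.74. Of the 4 germ cell sums that of null replicate 2 is the lowest, at 3.00.

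The other genes of these pathways were read from 4 lists of 96 genes in all, 94 with a probe and 67 in the test, each by 1 probe chosen in the same way. No gene passed the threshold (limma, adjusted p under 0.05 over all 22440 probes), against 2 probes, or 0.00891%, of all those tested, and 7 of the 67 had an unadjusted p under 0.05, which is 10.4% against 7.51% of all probes. Both null arrays lay above both wild-type arrays for 15 genes (22.4%, against 15.1% of all probes) and below for 16 (23.9%, against 23%). At least 2-fold apart without overlap were 5 genes higher and 1 lower, which is 7.46% against 3.92% of all probes, and 1.49% against 1.07%. The difference was positive for 28 of the 67 genes (41.8%), against 41.7% of all tested probes. The median log2 difference of the 67 genes was -0.065, and that of all tested probes -0.061.

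Steroid enzymes and their redox partners were near level. Of 23 listed genes 12 were tested, and 4 had a positive and 8 a negative difference. That is 33.3% positive, against 41.7% of all tested probes. The median log2 difference was -0.11, with all differences between -0.46 and 0.25. Akr1c18, which inactivates progesterone, read -3.29 and -3.00 in the null pools and -2.72 and -2.73 in the wild-type pools (limma adjusted p = 0.75). Hsd3b7, the family member of bile acid synthesis, read 1.59 and 2.16 in the null pools and 2.29 and 2.38 in the wild-type pools (limma adjusted p = 0.79). For both genes the null pools were the lower ones, without overlap. Hsd17b4, a peroxisomal enzyme of fatty acid breakdown, differed by -0.37, and Hsd17b7, of cholesterol and estrogen synthesis, by 0.25 (limma adjusted p = 0.79 and 0.86). Leaving out null replicate 2 gave -0.56 for Akr1c18, -0.74 for Hsd3b7, -0.23 for Hsd17b4 and 0.16 for Hsd17b7, and leaving out null replicate 1 gave -0.18 for Hsd3b7. A further 8 genes of the list were well above background on no array, the relatives Hsd3b2, Hsd3b3, Hsd3b5 and Hsd3b6 among them.

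Genes of cholesterol supply were measured throughout, and all 23 were tested. The difference was positive for 7 (30.4%, against 41.7% of all tested probes) and negative for 16, and its median was -0.12. Abca1, the cholesterol exporter, read 2.79 and 2.62 in the null pools and 3.14 and 3.49 in the wild-type pools, a difference of -0.61 with SE 0.23 (limma adjusted p = 0.66) that was -0.53 without null replicate 2. Acbd3, a partner of the mitochondrial protein Tspo, differed by -0.44, and the cholesterol carriers Stard4 and Stard5 by -0.54 and 0.43 (limma adjusted p = 0.76, 0.80 and 0.81). Leaving out null replicate 2 gave -0.28 for Acbd3, -0.13 for Stard4 and 0.32 for Stard5, and leaving out wild-type replicate 1 gave 0.17 for Stard5. In these 4 genes the pools of the 2 genotypes did not overlap by the probe used, and the differences stayed below 2-fold, while 1 further Stard4 probe, A_52_P561205, overlapped.

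Among 20 tested genes of Amh and BMP receptor signalling, 8 had a positive and 12 a negative difference, and the median was -0.07. That is 40% positive, against 41.7% of all tested probes. This list held 4 of the 6 pathway genes at least 2-fold apart without overlap. That is 15% of its tested genes higher and 5% lower, against 3.92% and 1.07% of all tested probes. Inha and Id4 are among them with readings not well above background in 1 genotype. With normexp they differed by 0.83 and -0.29, so nothing is read from this count. Inha, the inhibin alpha subunit made by gonadal somatic cells, read -2.28 and -1.26 in the null pools and -4.17 and -4.48 in the wild-type pools, and neither wild-type reading stood well above background. It was at least 4.36-fold higher in the null pools (limma adjusted p = 0.30), and at least 3.06-fold without null replicate 2. The probe entered the test through the null arrays alone, so its p supports nothing. The bound was 2.99-fold with scaling to spiked-in RNA and 1.78-fold with normexp. Its further probe, A_51_P434554, was dim in all pools and measured in null replicate 2 only, at -4.18 and -4.26 in the null pools and -4.29 and -4.81 in the wild-type pools. The flag pattern of the brighter probe, measured in both null pools and in neither wild-type pool, is that of Hsd3b1.

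Of the type I receptors that work with Amhr2, Bmpr1a read 0.30 and 1.03 in the null pools and -0.32 and -0.65 in the wild-type pools, a difference of 1.15 with SE 0.33 (limma adjusted p = 0.57). Acvr1 read -0.94 and 0.24 in the null pools and 0.02 and -0.11 in the wild-type pools, so the null pools lay on either side of wild type (limma adjusted p = 0.94). Id2, known as a target of BMP signalling, read 3.91 and 3.58 in the null pools and 2.84 and 2.77 in the wild-type pools (difference 0.94, limma adjusted p = 0.50), and its further probe differed by 1.12. Without null replicate 2 the differences of Bmpr1a and of Id2 were 0.78 and 1.10. Id4, of the same family, read -4.11 and -5.35 in the null pools, neither well above background, and -2.83 and -3.02 in the wild-type pools, which puts null at least 2.42-fold below wild type (limma adjusted p = 0.53). This Id4 probe entered the test through the wild-type arrays alone, so its p supports nothing. The further Id4 probe, A_51_P494430, was dim and overlapped, with a difference of 0.16. The bound of the first probe was 1.55-fold without null replicate 2 and 1.22-fold with normexp. The same pathway list thus held members on both sides. Bmp7, named after its values were seen as one of the 5 genes at least 2-fold higher without overlap, read 0.93 and -1.32 in the null pools and -1.49 and -2.67 in the wild-type pools (limma adjusted p = 0.73).

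Known regulators of the members differed among themselves. Of 12 tested, 9 had a positive and 3 a negative difference, and the median was 0.18. That is 75% positive, against 41.7% of all tested probes. The split was 7 positive and 5 negative without null replicate 1, and 8 and 4 without null replicate 2. It was 10 and 2 without wild-type replicate 1. With scaling to spiked-in RNA, which moved the median of all tested probes to -0.61, it was 3 and 9. Nr0b1, the nuclear receptor that represses Nr5a1 targets, read -0.35 and -1.09 in the null pools and -2.03 and -3.58 in the wild-type pools, a difference of 2.09 with SE 0.61 (limma adjusted p = 0.58). It was 2.46 without null replicate 2, 1.31 without wild-type replicate 2 and 0.94 with normexp. Gata6 read -0.26 and 1.43 in the null pools and -0.81 and -1.68 in the wild-type pools, a difference of 1.83 (limma adjusted p = 0.65) that fell to 0.99 without null replicate 2. Both genes had null pools above wild type without overlap, as did Cbx2, a Polycomb gene needed for testis formation in mice, with a difference of 0.47. The glucocorticoid receptor gene Nr3c1 lay below by the probe used, at -0.60 (limma adjusted p = 0.78 for Cbx2 and 0.75 for Nr3c1). Of the further Nr3c1 probes, A_52_P63106 also lay below, at -0.61. A_51_P355693 and A_52_P138090 overlapped, with differences of -0.60 and -0.25. The further Cbx2 probe was well above background on no array and overlapped. Leaving out null replicate 2 gave 0.21 for Cbx2 and -0.26 for Nr3c1.

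Nr5a1, Gata4 and Wt1, further regulators named by function, had overlapping genotypes, the first pair with readings mostly near background. Nr5a1 read -3.69 and -3.20 in the null pools and -4.18 and -2.58 in the wild-type pools, was measured in replicate 2 of each genotype only, and overlapped between genotypes. Gata4, by its brighter probe, read -4.44 and -3.55 in the null pools and -3.52 and -3.96 in the wild-type pools, and was well above background in null replicate 2 only. The further Gata4 probe, A_52_P4201, read -5.76 and -3.61 in the null pools and -5.75 and -6.33 in the wild-type pools. It also overlapped and was measured in null replicate 2 only. The differences by the brighter and the further probe were -0.25 and 1.35, in opposite directions. Wt1 was measured in all pools, at 0.23 and 1.96 in the null pools and 0.62 and -0.44 in the wild-type pools, with overlap (limma adjusted p = 0.84), and its difference of 1.00 was 0.14 without null replicate 2.

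**Figure D3:**
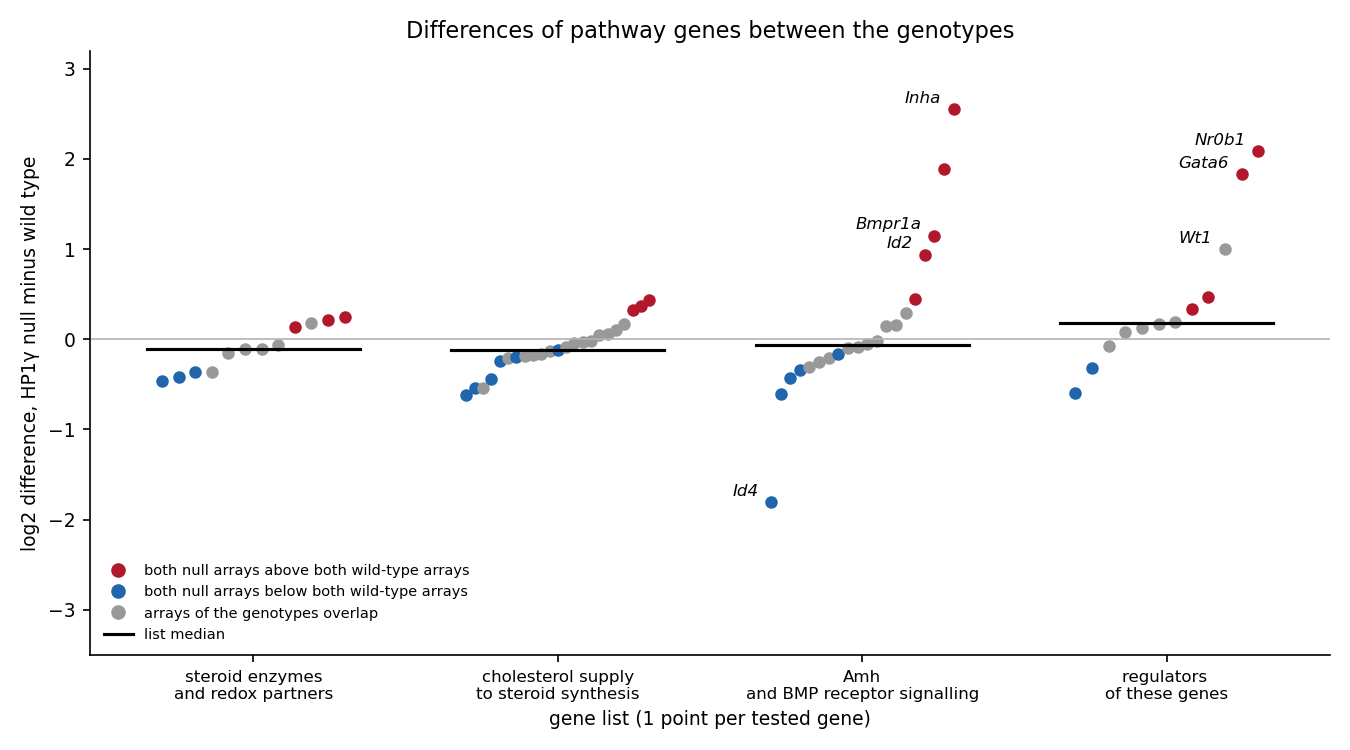
Log2 difference, HP1γ null minus wild type, of the 67 tested pathway genes (vertical axis) in 4 lists (horizontal axis), 1 point per gene, red where both null arrays lay above both wild-type arrays, blue where they lay below, grey where they overlapped, with a line at each list's median. The medians lie between -0.12 and 0.18, and Nr0b1 lies at 2.09. The points of Inha and Id4 use readings that were not well above background in 1 genotype, so their heights are not measured sizes.

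The profiles most like those of the members were sought among 11033 named genes measured on all 4 arrays, by the root mean square distance between log2 profiles centred on their own mean over the 4 pools. With 4 pools this is a description of shape only. Within a distance of 0.25 of Amhr2 lay 16 genes (0.145%), the nearest being Pcdhb21 at 0.11, Zfp975 at 0.14, Lor at 0.16, and Gpc1 and Bdh2 at 0.17 each. Pcdhb21 read 0.78 and 1.45 in the null pools and -0.45 and -1.25 in the wild-type pools. Within the same distance of Cyp17a1 lay 158 genes (1.43%), with Fbxo2 the nearest at 0.035 and then Fntb, Lars2, Trim45 and Apba1. Scarb1 had 5273 genes (47.8%) within that distance, Ndrg3, Samm50, Ppp3cb, Lta4h and Smim10l1 being nearest. A fixed distance takes in more genes for a level profile than for one with large differences, so these counts are not compared between the members.

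The size of the differences depended on background handling most of all for the dim genes. With normexp, whose offset compresses low intensities, the fitted difference of Hsd3b1 was 0.54 and that of Cyp11a1 0.42, against 2.82 and 2.71 with the processed signal, and both kept their sign. Those larger values rest on wild-type signals that are not well above background. The bounds above replace them, for Cyp11a1 that of null replicate 2 alone. Amhr2, measured on all arrays, moved less.

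**Figure D4:**
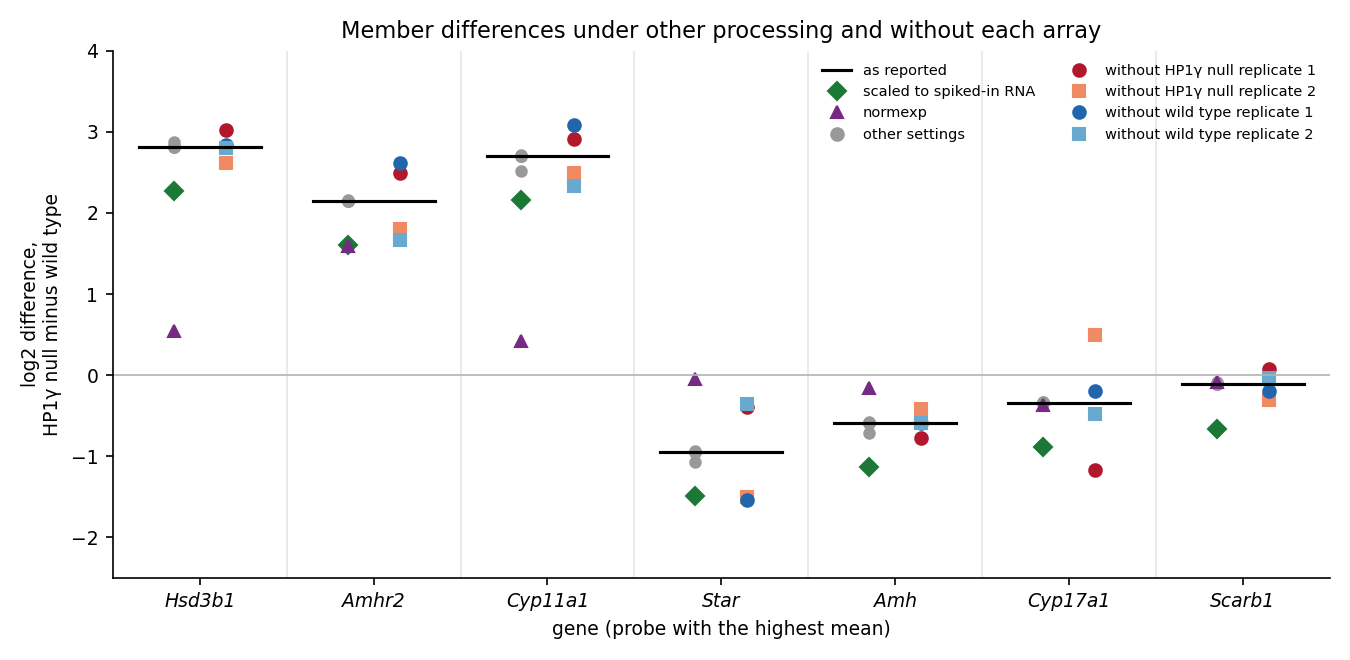
Log2 difference, HP1γ null minus wild type, of each member (vertical axis) by gene (horizontal axis), with grey, green and purple symbols for other processing and coloured symbols for values without 1 array. The black line, labelled as reported, is the difference of means with all arrays and the processed signal. For Hsd3b1 and Cyp11a1 that value is replaced by a bound in the text. Hsd3b1, Amhr2 and Cyp11a1 stay above 0 in every setting shown, with wild-type readings of Hsd3b1 and Cyp11a1 not well above background, while Cyp17a1 runs from -1.17 to 0.49 and Scarb1 from -0.30 to 0.073 as 1 array is left out.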

How the data were processed

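RNA from 4 pools of sorted cells (4 ng each, per the labels' protocols) was amplified with a low-input kit and read on 4 one-colour Agilent arrays with 1 scan date. The intensity values were deposited by the authors as Agilent Feature Extraction 10.7.3.1 output (per the submitters' processing notes), background-subtracted and detrended within each array per the file headers, and not scaled across arrays. The value table deposited by the authors equals those intensities to within 0.50%, in linear units and not centred, with medians of 14.5 and 33.4 in null replicates 1 and 2 and 20.6 and 22.6 in wild-type replicates 1 and 2.

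Computed here were log2 signals minus the array's 75th percentile over 43379 spots, averaged over the spots of a probe. Spots with an outlier mark were left out (83 to 104 per array), which left 41153 of 41174 probes. RefSeq accessions (GRCm38.p6) named 26869 of them. No member probe was saturated. The test was limma 3.58.1, run in R 4.3.3 (lmFit, then eBayes, two-sided, Benjamini-Hochberg over 22440 probes measured on both arrays of a genotype, threshold 0.05), with 2 residual degrees of freedom and a prior of 2.43. Tables were made with Python 3.11.15. The fit was run on simulated data as a check of the code. How often differences of the size described here would pass the threshold is not given. The replicate numbers name the pools, and the labels do not say that they pair them. With 4 arrays, precision is limited by their number. The members, lists and tests were chosen with earlier results of these data known. Named are all members, up to 4 genes per pathway list by unadjusted p, and 7 genes by function (Hsd3b6, Hsd3b2, Nr5a1, Gata4, Wt1, Bmpr1a and Acvr1). Alternatives covered normalization, background correction, the filter, the variance model, the source of values, a replicate block and leaving out each array. Protein sequences were not used here.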

Additional observations from a re-analysis of the deposited data

How the results depend on the processing

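The count of probes past the threshold, 2 with all arrays, was 137 with scaling to 7 spiked-in probes, 13 with the replicate number as a block, 7 with a variance trend, 1 among probes measured on all arrays and 0 with no filter, where 1474 had an unadjusted p under 0.05. Without any 1 array it was 0 by limma, with 716 to 5602 at an unadjusted p under 0.05. Probes at least 2-fold apart without overlap numbered 1120 (879 higher, 241 lower), against 2958 with scaling to spiked-in probes (424 higher, 2534 lower), 253 with normexp, 2302 with no filter and 516 among probes measured on all arrays, and 1440 to 3389 without 1 array. Scaling to spiked-in probes moved the median of all tested probes from -0.06 to -0.61, and under it the list medians were -0.65 for steroid enzymes, -0.67 for cholesterol supply, -0.61 for Amh and BMP signalling and -0.37 for regulators. Under the same scaling 1 pathway gene, Id4, passed (at least 3.53-fold lower in null, limma adjusted p = 0.018). Its probe entered the test through the wild-type arrays alone, with null readings not well above background, so this call supports nothing. The further Id4 probe overlapped. Hsd17b7, Stard5 and Cbx2 turned to -0.29, -0.11 and -0.072 under this scaling. Without 1 array, Cyp17a1 ranged from -1.17 to 0.49, Scarb1 from -0.30 to 0.073 and Acvr1 from -0.90 to 0.29, and the medians of steroid enzymes from -0.17 to 0.017 and of Amh and BMP signalling from -0.27 to 0.33. The replicate block left 0 pathway genes past the threshold and changed no call on a member. Same-numbered replicates had deviations that correlated at 0.066 over 22440 probes. Quantile normalization, the median of measured probes and the authors' deposited table kept the sign of every member difference. The files hold no mean signal, so normexp was run on the median signal, a setting chosen after seeing the data. No member had more than 1 tested probe, so averaging tested probes was not run. The causes of these moves were not tested. Signal over background limits Hsd3b1, Cyp11a1, Amh and Star to bounds or dim readings.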

Other observations

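Further genes of steroid hormone signalling gave weak but uneven readings. Cyp21a1, an enzyme of adrenal steroid synthesis, was well above background in every pool, at -2.86 and -4.00 in the null pools and -3.08 and -3.47 in the wild-type pools, with overlap. Mc2r, the receptor for the pituitary hormone that drives the adrenal cortex, was measured in replicate 2 of each genotype only, and read -4.12 and -3.42 in the null pools and -3.48 and -3.79 in the wild-type pools. Cyp19a1, the aromatase of estrogen synthesis, was measured in null replicate 2 only, and read -4.38 and -3.78 in the null pools and -3.91 and -4.69 in the wild-type pools. Lhcgr, the receptor for luteinizing hormone, and the ovarian factor gene Foxl2 were well above background on no array. These genes were named after their values were seen.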
